A study of Mus musculus with 9 samples.

Results

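Carbonic anhydrases Car2, Car4, Car5b, Car9, Car12 and Car13 and the potassium channel gene Kcnk5, 7 of 54146 genes in the deposited table, were followed across cells sorted as eosinophils from mouse quadriceps muscle. The 7 genes were chosen by their counts in these 9 libraries, all 3 groups included, so their levels and differences are a description and no p-value is attached to them. The 3 groups, of 3 libraries each, came from adult mice. IL5Tg mice carry an interleukin-5 transgene, mdx mice lack dystrophin because of a nonsense change in Dmd, and mdx_IL5Tg mice have both. The promoter that drives the transgene is not given in the sources used here, and neither is the number of mice behind a library. The strain label reads mdx for every sample, IL5Tg included, which conflicts with the titles, and groups were taken from the titles. No group without both the transgene and the dystrophin defect was analysed here. Sorted cells were live, carried CD45 and Siglec-F, and lacked Gr1, CD11c and class II molecules. The design text calls the replicates biological, and p-values below measure the spread between these samples.

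Carbonic anhydrases are zinc enzymes that interconvert carbon dioxide with bicarbonate and a proton, and so set how fast acid and carbon dioxide leave a cell. Car2 and Car13 work in the cytosol and Car5b in mitochondria. Car4 is held on the outer face of the plasma membrane by a lipid anchor, and Car9 and Car12 span the membrane with an outward-facing catalytic domain and are known as genes induced by low oxygen. Kcnk5 (TASK-2) is a two-pore potassium channel that opens at alkaline pH outside the cell and takes part in volume regulation. Eosinophils, granulocytes of allergic and tissue inflammation, depend on interleukin-5 for their growth and survival.

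Car4 and Kcnk5 gave the clearest pattern and lie on different chromosomes. Car4 (ENSMUSG00000000805.18) lies on the plus strand at chr11:84957786-84966044 and Kcnk5 (ENSMUSG00000023243.9) on the minus strand at chr14:20140057-20181809 (GRCm38, GENCODE release M21). Their upstream sequences are shown because the levels of both moved in the same order over the groups. They come from RefSeq (GRCm38.p6), which held a window for 5 of the 7 genes, and each is printed 5′ to 3′ up to the RefSeq start. That of Kcnk5 was cut by 27 bases where the GENCODE first exon begins. They cover chr11:84957504-84957753 (plus strand, 250 bases) and chr14:20181810-20182032 (minus strand, 223 bases), and capitals mark CpG pairs.
Car4: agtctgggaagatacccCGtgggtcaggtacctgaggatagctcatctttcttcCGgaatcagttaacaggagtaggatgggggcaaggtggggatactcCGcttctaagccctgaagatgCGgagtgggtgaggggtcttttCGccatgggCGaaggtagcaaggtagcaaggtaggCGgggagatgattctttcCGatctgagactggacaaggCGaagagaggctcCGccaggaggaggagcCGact
Kcnk5: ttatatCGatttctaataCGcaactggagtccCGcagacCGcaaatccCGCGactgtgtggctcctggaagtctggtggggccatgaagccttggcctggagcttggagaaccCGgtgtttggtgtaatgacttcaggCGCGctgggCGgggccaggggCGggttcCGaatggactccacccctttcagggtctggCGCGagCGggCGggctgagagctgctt

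The Car4 window held 11 CpG pairs at 56.4% G and C. The stretch printed for Kcnk5 held 16 at 61.4%, and its full window of 250 bases held 19 at 62.8%. The median over 32851 windows of the same length was 6 pairs at 52.4%. The windows of Car5b, Car12 and Car9 held 12, 6 and 5 pairs at 63.6%, 59.2% and 56.4%, so these values are not particular to Car4 and Kcnk5. Neither the Car4 window nor the full Kcnk5 window held any of 3 motifs that were searched on both strands. These were the hypoxia response core (ACGTG or GCGTG), found in 38.6% of all windows, a GATA motif (A or T, then GATA, then A or G), found in 26.5%, and a STAT motif (TTCNNNGAA), found in 7.02%. The letters of these motifs do not overlap one another.

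Car9 is set beside them as the member best known as a hypoxia target. A core match (CACGT, the reverse strand of ACGTG) lay 18 to 14 bases before its RefSeq start, at bases 43507008 to 43507012 of chromosome 4. In GENCODE the gene starts at 43506966, so there the match falls in its first exon, in the 5′ UTR. The 30 bases at chr4:43506996-43507025 (GRCm38.p6, plus strand) are printed with the match in capitals.
Car9: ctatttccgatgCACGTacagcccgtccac

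A GATA match (TGATAA) lay 228 to 223 bases before the Car9 start. The Car5b window held 5 core matches, and the Car12 window held none of the 3 motifs. These matches are letters in a window and say nothing of binding.

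Total counts ran from 26752800 to 58368300 per library, and 15886 genes passed the filter on low counts and were tested. Levels are CPM, the reads of a gene as a share of all reads of a library, scaled by TMM factors, and an adjusted p under 0.05 in edgeR's quasi-likelihood fit over all 9 libraries counts as a call. Il5, the transgene, was at 317 to 724 CPM in the 6 transgenic libraries and at 0.265 to 0.402 CPM in mdx. The summed level of 11 eosinophil markers ranged from 5711 to 15953 CPM in IL5Tg, from 5134 to 5584 in mdx_IL5Tg and from 2146 to 2944 in mdx, and none of them was at 0 in any library. The highest sum was that of IL5Tg S7, which also had the highest sum of 10 neutrophil markers (1337 CPM) and of 12 proliferation genes (643 CPM). The proliferation sum was 214 to 643 CPM in IL5Tg, 160 to 189 in mdx_IL5Tg and 147 to 201 in mdx. In mdx_IL5Tg against IL5Tg 7 of the 12 were called lower and 0 higher (58.3%, against 7.22% of all genes, median log2 -1.82). In mdx against IL5Tg 3 were called lower and 0 higher (25%, against 20.8%, median -1.18). Mitochondrial transcripts held 0.383% of counts in mdx S5 and 1.28% to 2.29% in the others. Values without IL5Tg S7 and mdx S5, a choice made after seeing the data, are given for the 5 members that passed the filter. Per-library values are listed in the order S7, S8, S9 for IL5Tg, then S1, S2, S3 for mdx_IL5Tg, then S4, S5, S6 for mdx.

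Car4 was high in both transgenic groups and low in mdx. It stood at 62.8, 53.3 and 76.2 CPM in IL5Tg. In mdx_IL5Tg it stood at 207, 152 and 177 CPM. In mdx it stood at 2.95, 3.95 and 2.99 CPM. The 3 groups did not overlap, and the order was mdx_IL5Tg, IL5Tg, mdx. Group means were 179 ± 27.6, 64.1 ± 11.5 and 3.30 ± 0.565 CPM in that order (SD, n = 3). In mdx_IL5Tg the level was 2.79-fold that of IL5Tg, a log2 difference of 1.48 (SE 0.18). Against mdx_IL5Tg the mdx level was 54.5-fold lower (log2 -5.77, SE 0.22), and against IL5Tg it was 19.5-fold lower (log2 -4.29, SE 0.20). The raw counts of Car4 were 118 to 141 in mdx and 1644 to 10505 in the 6 transgenic libraries, so every library held reads of it. Without IL5Tg S7 and mdx S5 the 3 differences were 1.47, -5.92 and -4.44. In these bulk samples fewer cells with a transcript and less transcript per cell cannot be told apart.

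Kcnk5 followed the same order. It was at 22.9, 19.0 and 30.9 CPM in IL5Tg. In mdx_IL5Tg it was at 51.8, 38.7 and 46.1 CPM. In mdx it was at 1.53, 0.803 and 1.11 CPM. The groups did not overlap, although the lowest mdx_IL5Tg library stood nearer to the highest IL5Tg library than for Car4. Means were 45.6 ± 6.55 CPM in mdx_IL5Tg, 24.3 ± 6.09 in IL5Tg and 1.15 ± 0.364 in mdx (SD, n = 3). The mdx_IL5Tg level was 1.88-fold that of IL5Tg (log2 0.91, SE 0.23). The mdx level was 39.0-fold lower than that of mdx_IL5Tg (log2 -5.29, SE 0.29) and 20.8-fold lower than that of IL5Tg (log2 -4.38, SE 0.28). Without IL5Tg S7 and mdx S5 the 3 differences were 0.88, -5.11 and -4.23. The mdx comparisons share libraries with each other and with the first, so the values stand side by side and are not 3 separate observations.

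**Figure D1:**
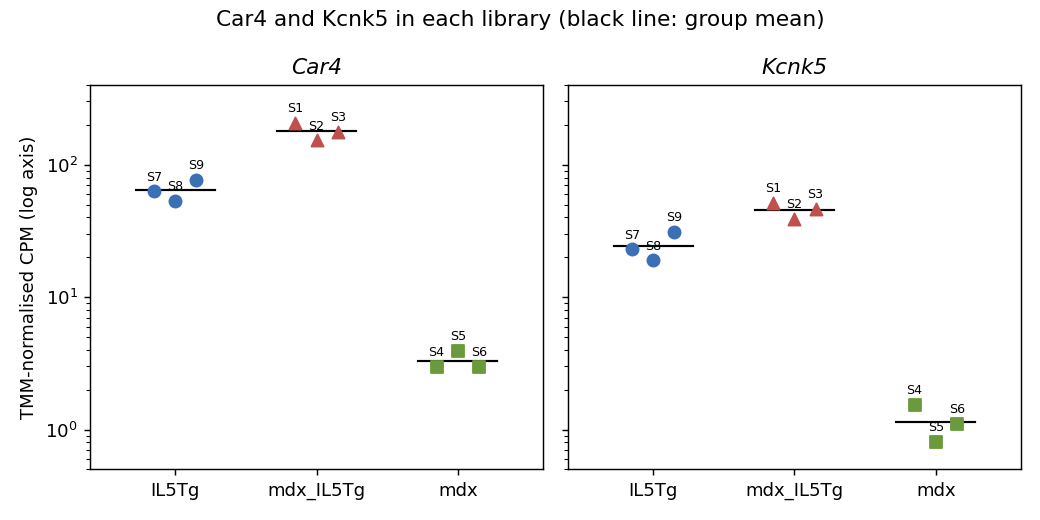
Level of Car4 and of Kcnk5 in each of the 9 libraries, in TMM-normalised CPM on a log axis, by group, with 1 point per library and the group mean marked. For both genes the mdx_IL5Tg libraries lie highest (152 to 207 CPM for Car4) and the mdx libraries lowest (2.95 to 3.95 CPM for Car4), with no overlap.

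The ratio of Car4 reads to Kcnk5 reads was alike within each transgenic group. It was 2.74, 2.82 and 2.47 in IL5Tg. In mdx_IL5Tg it was 4.0, 3.93 and 3.84. In mdx it was 1.93, 4.92 and 2.70, and the value of S5 rests on 24 Kcnk5 reads. The mdx_IL5Tg ratios were all above those of IL5Tg, whereas the mdx ratios spread over both. On the log2 CPM scale the levels of the 2 genes had a Pearson r of 0.987 over the 9 libraries, a description with no test, since the libraries fall into 3 groups.

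Markers of several other cell types were higher in mdx, where Car4 and Kcnk5 were lowest. The summed level of 10 macrophage markers was 213 to 246 CPM in IL5Tg, 333 to 444 in mdx_IL5Tg and 586 to 950 in mdx. The 10 fibroblast markers summed to 1271 to 2661, 1342 to 3620 and 4540 to 11090 CPM in the same order. None of the fibroblast markers was at 0, and at most 1 of the macrophage markers was at 0, in IL5Tg. The 10 endothelial markers, none at 0, summed to 491 to 690, 327 to 730 and 747 to 957 CPM. In mdx against IL5Tg edgeR called 9 of the macrophage, 6 of the fibroblast and 4 of the endothelial markers higher and 0 lower, with median log2 differences of 4.17, 2.05 and 0.92. These are 90%, 60% and 40% of the lists, against 20.8% of all genes called. Of 9 skeletal muscle markers tested 8 were called higher and 1, Neb, lower (median 3.08). The summed level of the 10 muscle markers nevertheless was lower in mdx, at 106 to 219 CPM against 301 to 673 in IL5Tg and 362 to 667 in mdx_IL5Tg, as Neb held 477 CPM in IL5Tg and 68.6 in mdx. Of 9 basophil and mast cell markers tested 4 were called higher and 1 lower (median 0.14), and the 10 on the list summed to 67.4 to 118, 77.8 to 86.9 and 47.9 to 69.2 CPM, with up to 2 at 0 in mdx. The 10 neutrophil markers found summed to 421 to 1337, 116 to 168 and 12.7 to 337 CPM, with up to 2 of them at 0 in mdx. In mdx against IL5Tg edgeR called 2 of them lower and 0 higher (20%, against 20.8% of all genes). Of the 10, 9 had negative differences there (median log2 -1.69). In mdx_IL5Tg against IL5Tg, where Car4 and Kcnk5 were higher, edgeR called 7.22% of all genes. It called 5 macrophage (median log2 1.95), 4 skeletal muscle (1.31) and 1 fibroblast marker (0.61) higher and 0 lower. Of the others it called 0 endothelial markers, 1 neutrophil marker higher and 1 basophil and mast cell marker lower. The neutrophil call went against its list, where 9 of 10 markers had negative differences (median log2 -2.51). The part of other cells in these differences was not tested.

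The eosinophil markers, 11 genes on the list, differed among themselves. In mdx against IL5Tg edgeR called 7 of them lower and 0 higher (63.6% called, against 20.8% of all genes), with a median log2 difference of -3.60 against 0.013 for all genes. The 6 genes for granule proteins fell 12.1- to 39.2-fold, a range that holds the 19.5-fold difference of Car4 and the 20.8-fold difference of Kcnk5. Over the alternative fits Epx ran from -6.68 to -3.12 on the log2 scale, and Car4 only from -4.44 to -4.19. In mdx_IL5Tg against IL5Tg the 6 genes had negative log2 differences, from -3.13 to -2.21, whereas Car4 and Kcnk5 were higher (1.48 and 0.91). Epx, eosinophil peroxidase, was at 1155 CPM on average in IL5Tg, 161 in mdx_IL5Tg and 58 in mdx, 19.9-fold lower in mdx than in IL5Tg (log2 -4.31, edgeR adjusted p = 0.0349). Prg2, the major basic protein, was 16.7-fold lower and Prg3, its homologue, 12.1-fold lower. The ribonuclease genes Ear1, Ear2 and Ear6 were 37.9-, 39.2- and 30.3-fold lower, and are uncertain because near-identical copies can share their reads. Within mdx, S6 stood apart for these genes, with Epx at 151 CPM against 16.1 in S4 and 7.13 in S5. The count of 7 was 2 without mdx S4 and 1 in a fit of only these 2 groups. In mdx against mdx_IL5Tg 3 markers fell and 0 rose (27.3%, against 21.6% of all genes), and 8 fell without mdx S6. In mdx_IL5Tg against IL5Tg 7 markers had a negative difference and 4 a positive one, with a median of -2.21 on the log2 scale. There edgeR called 0 of the 11, DESeq2 7 and voom 5.

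The remaining markers fell less or did not pass in mdx against IL5Tg. Siglecf, which marked the sort, fell by 1.17 on the log2 scale, from 353 to 157 CPM (edgeR adjusted p = 0.000788). Ccr3, the eotaxin receptor, was at 968, 1372 and 1017 CPM on average in IL5Tg, mdx_IL5Tg and mdx, and its log2 difference of 0.072 did not pass (edgeR adjusted p = 0.778). Il5ra, the interleukin-5 receptor chain, was at 60.2, 58.1 and 61.1 CPM, and did not pass either (log2 0.023, edgeR adjusted p = 0.935). Alox15, a lipoxygenase (log2 -0.60), and Cebpe, a granulocyte transcription factor (-0.15), did not pass (edgeR adjusted p = 0.0995 and 0.563).

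Among the carbonic anhydrases Car4 stood highest in every group when levels were set per kb of exon. Its mean level was 91.0 ± 14.0 CPM per kb for mdx_IL5Tg, 32.6 ± 5.84 for IL5Tg and 1.68 ± 0.287 for mdx (SD, n = 3). Over the 16 carbonic anhydrase genes of the table, members and others, Car4 held 89.2% to 93.2% of the summed level per kb in IL5Tg libraries. The share was 96.9% to 98.3% in mdx_IL5Tg and 25.1% to 44.0% in mdx. The other 15 genes together summed to 2.42 to 3.88 CPM per kb in IL5Tg, 1.57 to 2.49 in mdx_IL5Tg and 2.56 to 4.47 in mdx, so the summed level of these genes overlapped between IL5Tg and mdx. Kcnk5 was at 7.13 ± 1.79, 13.4 ± 1.92 and 0.337 ± 0.107 CPM per kb, the second highest of the 17 genes in the transgenic groups and the sixth in mdx. In mdx the gene next to Car4 was Car13 at 0.953 ± 0.389 CPM per kb, followed by Car8 at 0.810 ± 0.117, and their spreads overlapped.

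**Figure D2:**
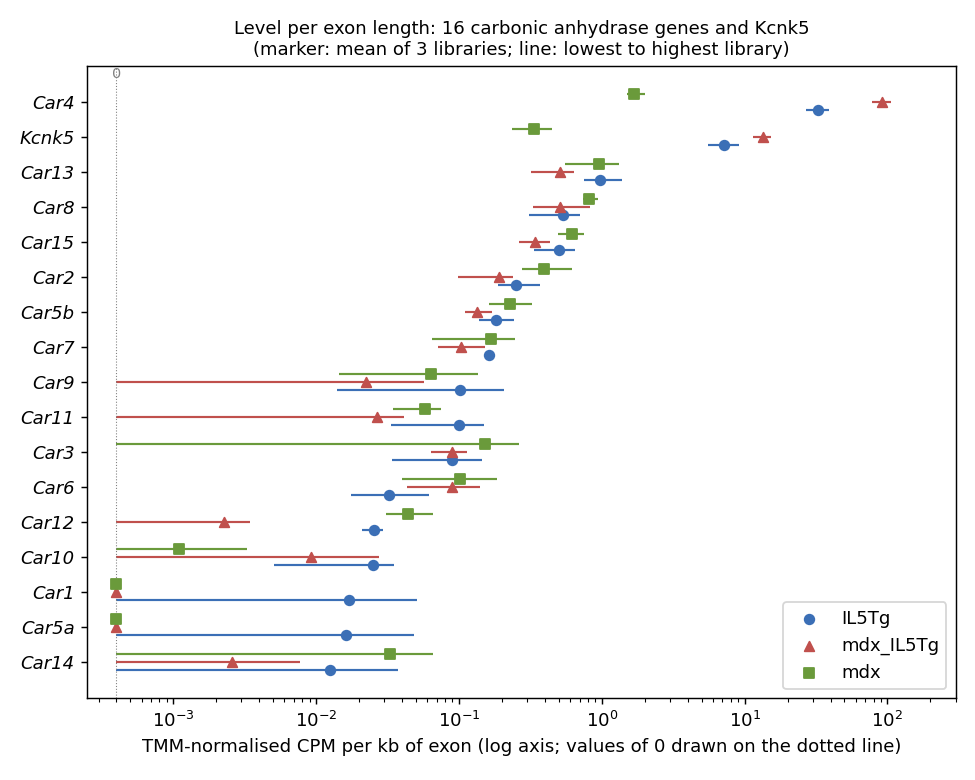
Level of the carbonic anhydrase genes and Kcnk5 per kb of exon, in TMM-normalised CPM per kb on a log axis, with a marker at the mean of 3 libraries, a line from the lowest to the highest library, and values of 0 drawn on the dotted line. Car4 lies highest in every group, at a mean of 91.0 CPM per kb in mdx_IL5Tg and 1.68 in mdx, while the other 15 carbonic anhydrases together sum to 1.57 to 4.47 CPM per kb in any library.

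The cytosolic and mitochondrial members were low in all groups. Car13 (plus strand, chr3:14641727-14663002) stood at 3.20, 1.82 and 1.71 CPM in IL5Tg. In mdx_IL5Tg it stood at 1.48, 1.28 and 0.731 CPM, and in mdx at 3.06, 1.27 and 2.24 CPM. All 3 mdx_IL5Tg libraries lay below the 3 of IL5Tg, at a log2 difference of -0.94 (SE 0.42), while mdx overlapped both other groups. The mdx difference was 0.91 (SE 0.42) against mdx_IL5Tg and -0.029 (SE 0.42) against IL5Tg. With both IL5Tg S7 and mdx S5 left out the 3 differences were -0.59, 1.17 and 0.59. The first was -0.55 without IL5Tg S7 alone, and the second 0.51 without mdx S4 and 0.56 without mdx_IL5Tg S3. The last was 0.26 without IL5Tg S7, 0.24 without mdx S5 and -0.38 without mdx S4, so its sign rests on single libraries.

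Car2 (plus strand, chr3:14886273-14900770), the widespread cytosolic enzyme with high activity, lies on the same chromosome, with Car1 and Car3 between it and Car13. It was at 0.896, 0.454 and 0.485 CPM in IL5Tg. In mdx_IL5Tg it was at 0.237, 0.579 and 0.574 CPM, and in mdx at 0.691, 0.669 and 1.5 CPM. The mdx libraries were all above those of mdx_IL5Tg, at a log2 difference of 1.05 (SE 0.53), and IL5Tg overlapped both. These levels rest on 12 to 62 counts per library. The difference was -0.41 (SE 0.54) in mdx_IL5Tg against IL5Tg, and 0.016 without IL5Tg S7. It was 0.64 (SE 0.52) in mdx against IL5Tg. Both mdx differences rest largely on mdx S6, without which they were 0.47 and 0.11. The first of them was 0.63 without mdx_IL5Tg S1. With both IL5Tg S7 and mdx S5 left out the 3 differences of Car2 were -0.027, 1.24 and 1.21.

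Car5b (minus strand, chrX:163976822-164027997), the mitochondrial enzyme, was at 1.54, 0.876 and 1.04 CPM in IL5Tg. In mdx_IL5Tg it was at 0.751, 1.08 and 0.705 CPM, and in mdx at 2.07, 1.04 and 1.23 CPM. The groups overlapped in every comparison, with log2 differences of -0.45 (SE 0.40) in mdx_IL5Tg against IL5Tg, 0.78 (SE 0.40) in mdx against mdx_IL5Tg and 0.33 (SE 0.39) in mdx against IL5Tg. Without mdx S4 the mdx differences were 0.35 and -0.047, and without IL5Tg S7 the first difference was -0.13. With both IL5Tg S7 and mdx S5 left out the 3 were -0.18, 0.96 and 0.79. Over the 9 libraries Car5b and Car13 had a Pearson r of 0.83, and both were highest in IL5Tg S7 and mdx S4 within their groups.

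The hypoxia-inducible transmembrane members were barely detected. Car12 (plus strand, chr9:66713686-66766845) had 5, 6 and 6 counts in IL5Tg, 0, 1 and 1 in mdx_IL5Tg, and 24, 7 and 11 in mdx. In CPM its means were 0.193 ± 0.0319, 0.0171 ± 0.0148 and 0.334 ± 0.147 (SD, n = 3), and the groups did not overlap. It did not pass the filter on low counts. Scaled for depth, the 17 counts of IL5Tg against the 2 of mdx_IL5Tg give a ratio of 12.3. The 42 counts of mdx against the same 2 give 22.7. Both ratios pool the reads of 3 libraries per group, rest on 2 counts and are very imprecise. They are a description, since Car12 was chosen with these counts known. Its level was lowest in the group where Car4 and Kcnk5 were highest.

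Car9 (plus strand, chr4:43506966-43513729) had 15, 1 and 5 counts in IL5Tg, 0, 1 and 5 in mdx_IL5Tg, and 15, 1 and 4 in mdx. The groups overlapped, and the 2 libraries with 15 counts were IL5Tg S7 and mdx S4. An antisense gene, Gm12454, shares 214 exon bases with it, and since the strand setting of the counting is not given, their reads may not be told apart.

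**Figure D3:**
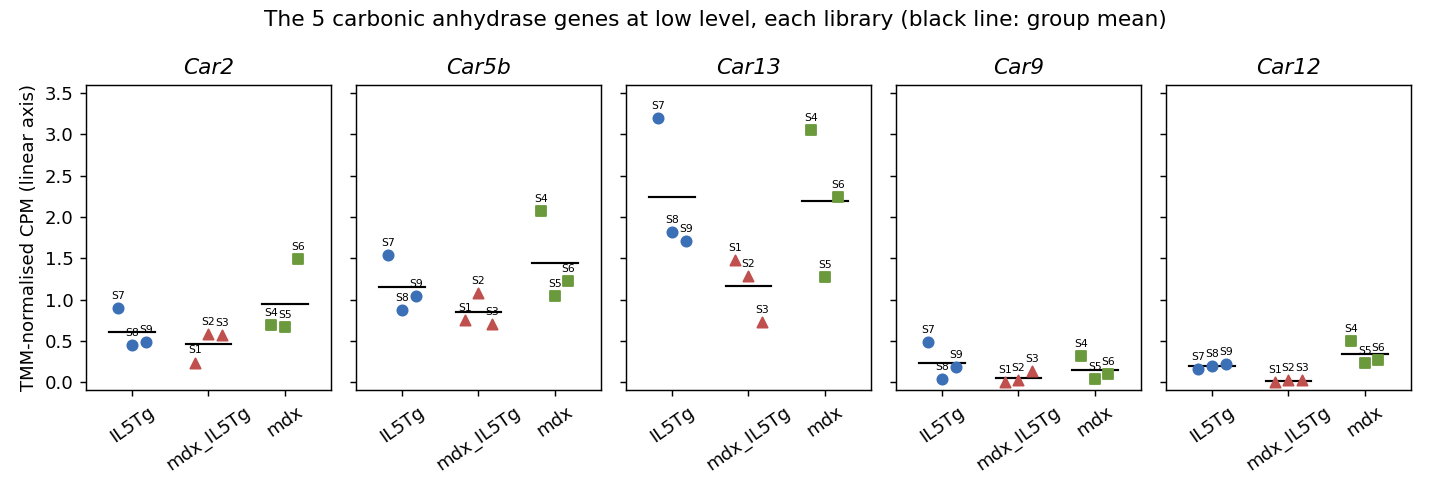
Level of Car2, Car5b, Car9, Car12 and Car13 in each library, in TMM-normalised CPM on a linear axis by group, with 1 point per library and a line at the group mean. Car13 ranges from 0.731 to 3.20 CPM, and Car12 separates the groups only at counts of 0 to 24.

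Of the 7 genes 5 passed the filter, and in each comparison the calls were those of Car4 and Kcnk5. Both were higher in mdx_IL5Tg than in IL5Tg, where 7.22% of all tested genes were called (4.35% higher and 2.87% lower). Both were lower in mdx than in mdx_IL5Tg, where 21.6% of all genes were called (11.5% higher and 10.1% lower). Both were lower in mdx than in IL5Tg, where 20.8% were called (11.8% higher and 8.96% lower). Groups did not overlap for 3, 3 and 2 of the 5 in these comparisons, against 35.9%, 42.0% and 41.9% of all genes. The median log2 difference of the 5 was -0.41, 0.78 and -0.029, against -0.050, 0.13 and 0.013 for all genes. As these comparisons chose the members, nothing is read from the counts. In mdx_IL5Tg against IL5Tg the call of Kcnk5 ended with library totals only and without IL5Tg S7, IL5Tg S8, mdx_IL5Tg S1 or mdx_IL5Tg S2, or when IL5Tg S7 and mdx S5 were both left out, with the count then at 1 and its log2 difference between 0.69 and 1.17 over all alternatives.

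The genes whose log2 levels followed each member most closely were taken from 7529 genes of at least median expression. For Car4 they were Ppp1cb, a catalytic subunit of protein phosphatase 1 (Pearson r 0.997), Aifm3 (0.995) and Tmem64 (0.994). For Kcnk5 they were Dck, deoxycytidine kinase (0.996), Ptgs1, the constitutive cyclooxygenase (0.996), and Cd24a, a surface glycoprotein (0.995). Their mean levels show that likeness in shape came with unlike sizes of change. Aifm3 was at 8.19, 15.2 and 0.624 CPM in IL5Tg, mdx_IL5Tg and mdx. Ptgs1 was at 74.5, 111 and 14.6 CPM, and Cd24a at 1393, 1790 and 597 CPM. Ppp1cb moved least, at 430, 477 and 293 CPM, despite the highest r.

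For the low members the likeness was weaker. Those of Car13 were Xpot, a transfer RNA exporter (0.976), Dtx3l (0.941) and Iars, isoleucyl-tRNA synthetase (0.941). Those of Car5b were Cav2 (0.969), Rnd3 (0.953) and Ccdc50 (0.948), and those of Car2 were Smc1a, a cohesin subunit (0.894), Cks2 (0.834) and Cd2ap (0.818). All of these are descriptions over 9 libraries that share their 3 groups.

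Other genes of acid-base and ion handling, in 6 lists of 82 genes, gave 50 tested. Of these 6 were called in mdx_IL5Tg against IL5Tg (12%, 4 higher and 2 lower), 11 in mdx against mdx_IL5Tg (22%, 7 higher and 4 lower) and 10 in mdx against IL5Tg (20.0%, 6 higher and 4 lower). The first share stands against 7.22% of all genes, and the last 2 lie near the 21.6% and 20.8% of all genes. The median log2 differences were -0.13, 0.55 and 0.30, against -0.050, 0.13 and 0.013 for all genes. In the first comparison the count was 1 without IL5Tg S7 or mdx_IL5Tg S1 and 3 without IL5Tg S8 or mdx_IL5Tg S2. In the second it was 4 with mdx_IL5Tg S1 left out, 6 with mdx_IL5Tg S3 or mdx S6 left out and 7 with mdx S4 left out, and it was 21 with library totals only and 19 with no filter. In the third it was 6 without IL5Tg S8 or IL5Tg S9.

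The other carbonic anhydrases gave no call in the reported fit. Of 10 such genes 4 were tested, Car3, Car7, Car8 and Car15, and edgeR called 0 in each comparison, as did DESeq2 and limma voom. With scaling by library totals only, Car15 passed in mdx against mdx_IL5Tg (log2 1.2, edgeR adjusted p = 0.0408). At an unadjusted p under 0.05 edgeR had 0, 1 and 0 of them, the 1 being Car15 in mdx against mdx_IL5Tg. Car15, a membrane-anchored enzyme, was at 0.960, 0.653 and 1.19 CPM in IL5Tg, mdx_IL5Tg and mdx, and Car8, which lacks catalytic activity, at 2.08, 1.95 and 3.12 CPM. Their smallest adjusted p-values were 0.396 in the first comparison and 0.137 in the second (edgeR, both Car15), and 0.331 in the third (edgeR, Car8).

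Among the other two-pore potassium channels 5 of 13 were tested. Kcnk13, a channel of this family, rose from 0.635 CPM in IL5Tg to 2.01 in mdx_IL5Tg (log2 1.65, SE 0.38, edgeR adjusted p = 0.0327) and to 3.40 in mdx (log2 2.41, SE 0.38, edgeR adjusted p = 0.00183). Its order, with mdx highest, was unlike that of Kcnk5, whose mdx level was the lowest. Its call in mdx_IL5Tg was lost when IL5Tg S7, IL5Tg S9, mdx_IL5Tg S1 or mdx_IL5Tg S2 was left out, or S7 with mdx S5 (edgeR adjusted p from 0.0561 to 0.114). The call in mdx held in all 14 alternatives. Kcnk6 was more abundant at 9.04, 10.3 and 12.8 CPM, and did not pass in any comparison (smallest edgeR adjusted p = 0.0848, in mdx against IL5Tg). In mdx against mdx_IL5Tg edgeR, DESeq2 and voom called 0 of these channels, and at an unadjusted p under 0.05 edgeR had 1, Kcnk1.

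Bicarbonate transporters, which move the product of carbonic anhydrases across membranes, had 9 of 15 tested. Slc4a3, a chloride-bicarbonate exchanger, rose in mdx against mdx_IL5Tg from 0.592 to 2.05 CPM (log2 1.78, SE 0.43, edgeR adjusted p = 0.0152), a call lost with mdx_IL5Tg S1 (adjusted p = 0.0772) or mdx_IL5Tg S3 (0.0549) left out. In mdx_IL5Tg against IL5Tg edgeR, DESeq2 and voom called 0, and at an unadjusted p under 0.05 edgeR had 0. In mdx against IL5Tg edgeR and voom called 0 and DESeq2 called 1, Slc4a7, and at an unadjusted p under 0.05 edgeR had 2. Slc4a7, a sodium-bicarbonate cotransporter, was at 80.3, 69.8 and 54.0 CPM in IL5Tg, mdx_IL5Tg and mdx (mdx against IL5Tg, log2 -0.57, edgeR adjusted p = 0.0532). Slc4a2, the anion exchanger of many cell types, was at 78.4, 96.7 and 102 CPM without passing in any comparison (smallest edgeR adjusted p = 0.215).

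Proton and lactate export had 14 of 19 genes tested. Bsg, the chaperone that carries lactate transporters to the membrane, rose in mdx_IL5Tg against IL5Tg from 111 to 246 CPM (log2 1.15, SE 0.16, edgeR adjusted p = 0.00571). It was at 109 CPM in mdx, where it fell by 1.18 on the log2 scale against mdx_IL5Tg (SE 0.16, edgeR adjusted p = 0.000937), and both calls held in all 14 alternatives. Slc16a3, the lactate and proton exporter of glycolytic cells, rose in the first comparison from 1225 to 2109 CPM (log2 0.78, edgeR adjusted p = 0.0298). It was at 1265 CPM in mdx, where it fell by 0.74 on the log2 scale against mdx_IL5Tg (edgeR adjusted p = 0.0139). Its first call ended without any 1 of IL5Tg S7, S8 and S9 and mdx_IL5Tg S1 and S2 (edgeR adjusted p from 0.0643 to 0.147), and its second without mdx_IL5Tg S1 (0.0566). Both genes thus had their highest mean in mdx_IL5Tg, as Car4 and Kcnk5 did, but their mdx level was close to that of IL5Tg (log2 -0.028 and 0.046, edgeR adjusted p = 0.918 and 0.87).

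Further genes of that list moved otherwise. Slc9a9, an endosomal sodium-proton exchanger, rose in mdx from 1.36 CPM in IL5Tg and 1.18 in mdx_IL5Tg to 4.94 CPM (log2 1.86 and 2.07, edgeR adjusted p = 0.00631 and 0.00399), and both calls held in all 14 alternatives. Chp1, a cofactor of these exchangers, fell in mdx against mdx_IL5Tg from 378 to 196 CPM (log2 -0.95, edgeR adjusted p = 0.00143). Its fall of 0.48 on the log2 scale against IL5Tg (edgeR adjusted p = 0.0335) ended in 7 alternatives (adjusted p up to 0.114), among them without IL5Tg S8, IL5Tg S9, mdx S4 or mdx S6. Hvcn1, the voltage-gated proton channel of phagocytes, was at 23.3, 23.1 and 18.3 CPM in IL5Tg, mdx_IL5Tg and mdx.

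Of 12 acid-sensing genes 7 were tested. Gpr132, a receptor of the proton-sensing family, rose against IL5Tg in mdx_IL5Tg (log2 0.81, edgeR adjusted p = 0.0234) and in mdx (log2 0.80, edgeR adjusted p = 0.0075), from 191 to 336 and 332 CPM. The first of these ended without IL5Tg S7 (edgeR adjusted p = 0.0705), IL5Tg S8 (0.0584) or mdx_IL5Tg S1 (0.119). Ostm1, a subunit of a lysosomal chloride-proton exchanger, fell in mdx to 31.2 CPM, from 52.8 in IL5Tg and 46.7 in mdx_IL5Tg (log2 -0.76 and -0.58, edgeR adjusted p = 0.00161 and 0.00693). With library totals only the second had an adjusted p of 0.0985. Gpr65, the proton-sensing receptor known in eosinophils, was at 39.8, 50.4 and 40.1 CPM and did not pass in any comparison (smallest edgeR adjusted p = 0.32).

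Volume regulation, in which Kcnk5 takes part, had 11 of 13 genes tested. In mdx_IL5Tg against IL5Tg edgeR, DESeq2 and voom called 0, and at an unadjusted p under 0.05 edgeR had 2. In mdx against mdx_IL5Tg 4 rose, and in mdx against IL5Tg 3 rose and 1 fell. Each is 36.4% of the 11, against 21.6% and 20.8% of all genes. Lrrc8d, a subunit of the volume-regulated anion channel, fell in mdx from 293 CPM in IL5Tg to 144 CPM (log2 -1.02, SE 0.22, edgeR adjusted p = 0.00858), and this call held in all 14 alternatives. Slc12a4, a potassium-chloride cotransporter, rose in mdx to 31.0 CPM from 16.9 in IL5Tg and 17.0 in mdx_IL5Tg (log2 0.87 in both, edgeR adjusted p = 0.0172 and 0.0174). These calls ended without IL5Tg S7, S8 or S9 in the first case and without mdx_IL5Tg S1, mdx_IL5Tg S3 or mdx S6 in the second (edgeR adjusted p from 0.0637 to 0.0837). Lrrc8b, another subunit, rose in mdx against mdx_IL5Tg from 3.19 to 8.62 CPM (log2 1.44, edgeR adjusted p = 0.0144), a call lost when mdx S4 (0.0691), mdx S6 (0.0546) or mdx_IL5Tg S1 (0.0813) was left out.

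Because Car9 and Car12 are known as hypoxia-inducible, 12 other hypoxia target genes were set beside them, and all 12 were tested. In mdx_IL5Tg against IL5Tg 8 rose and 0 fell (66.7% called against 7.22% of all genes, median log2 1.05). In mdx against mdx_IL5Tg 9 fell and 1 rose (83.3% against 21.6%, median -1.25). In mdx against IL5Tg 2 rose and 1 fell, and this 25.0% is near the 20.8% of all genes (median -0.26). Egln1, an oxygen-sensing hydroxylase, went from 17.1 to 63.7 CPM in the first comparison (log2 1.89, SE 0.18, edgeR adjusted p = 0.000672). In mdx it was at 27.6 CPM, a fall of 1.21 on the log2 scale against mdx_IL5Tg (edgeR adjusted p = 0.00121). Without mdx_IL5Tg S1 the call of Ldha in the first comparison ended (edgeR adjusted p = 0.0603), as did that of P4ha1 (0.132), and 6 genes rose. In the third comparison the count of calls was between 1 and 2 when any 1 library was left out, and 1 to 5 over all alternatives. While 8 of these genes were called higher in mdx_IL5Tg, Car12 had 2 counts and Car9 6 counts over the 3 libraries of that group. Neither passed the filter on low counts, the groups overlapped for Car9, and any relation to the hypoxia targets was not tested.

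**Figure D4:**
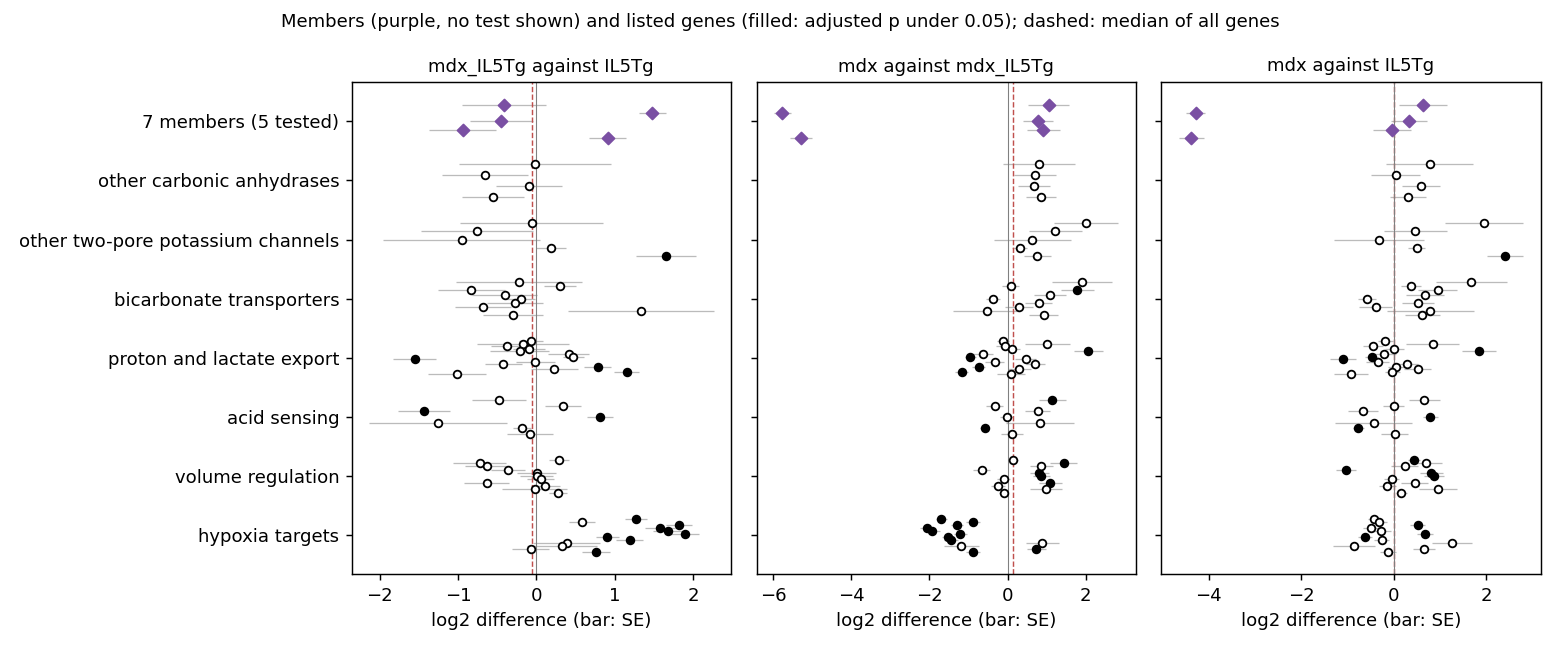
Log2 differences, with bars of 1 SE, of the 5 tested members (purple, no test shown) and of the tested genes of the 6 acid-base and ion lists and the hypoxia list, in 1 panel per comparison. Filled points passed an edgeR adjusted p of 0.05 and the dashed line is the median of all tested genes. Car4 and Kcnk5 lie at 1.48 and 0.91 in mdx_IL5Tg against IL5Tg and between -5.77 and -4.29 in the comparisons of mdx, while Car2, Car5b and Car13 lie between -0.94 and 1.05.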

How the data were processed

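Eosinophils were sorted into TRIZOL-LS, and libraries were made from total RNA with a low-input kit, per the labels' protocols. Values are expected counts, not normalised, which the authors estimated with RSEM and deposited for each gene. Per the submitters' processing notes, the tools were RSEM 1.3.0, STAR 2.5.3, cutadapt 2.10 and limma, and the build was mm10. The annotation and strandedness used for counting were not given in the sources used here. Because RSEM divides ambiguous reads between genes, 6.03% of values were fractional, and these were rounded to whole numbers.

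The column names carry the group and an S number, so a column shows its group and not which replicate of the titles it is. Libraries were scaled by TMM after edgeR's filterByExpr (minimum count 10), and differences were fitted with edgeR 4.0.16 in R 4.3.3 (quasi-likelihood, robust), with 1 mean per group over 9 libraries and Benjamini-Hochberg adjustment over 15886 genes. SE values come from the F statistic. The fit was tested on simulated data. Levels per kb use exon unions of GENCODE release M21, in which 54079 gene identifiers were found. Correlations use log2 CPM with a prior count of 2.

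The members and the lists were chosen with earlier results of these data known. From each list any gene past the threshold and at least the 2 with the smallest p could be named, and per tested member the 3 genes with the highest r. Hvcn1, Slc4a2, Gpr65, Kcnk1 and marker genes were named after their values were seen. Alternatives were DESeq2 1.42.0, limma 3.58.1 with voom, RLE factors, scaling by library totals only, a filter of 50 counts in 3 libraries or none, a fit of only the groups compared, and each library left out. Leaving out both IL5Tg S7 and mdx S5 was chosen after seeing the data. Columns were all mapped.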

Additional observations from a re-analysis of the deposited data

How the results depend on the processing

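The 5 tested members kept 196 of 204 values within the spread between replicates, with the same sign, over the alternatives. The other 8 moved further or changed sign, and some of these changes of sign were within the spread. This spread is each gene's own and is wide for the low members. The fall of Car2 in mdx against IL5Tg from 0.64 to 0.11 without mdx S6 thus counts as kept. Car4 ranged from 1.26 to 1.67, from -5.96 to -5.45 and from -4.44 to -4.19 on the log2 scale in mdx_IL5Tg against IL5Tg, mdx against mdx_IL5Tg and mdx against IL5Tg, and Kcnk5 from 0.69 to 1.17, from -5.63 to -4.95 and from -4.67 to -4.19. Among the members, the eosinophil markers and the list genes followed over the alternatives, no called gene changed sign. Other called genes were not checked for this. The number of members called in mdx_IL5Tg against IL5Tg was 1 with library totals only and 1 with both IL5Tg S7 and mdx S5 left out, and 1 to 2 when any 1 library was left out. In mdx against mdx_IL5Tg it was 4 without those libraries together, with Car12 (log2 4.35) and Car13 (1.17) added, and 2 to 3 when any 1 was left out. The fit without both libraries called 4495 of 16511 genes. Car12 rests there on 2 counts in mdx_IL5Tg. As the members were chosen with these counts known, nothing is read from their calls. Genes called in mdx_IL5Tg against IL5Tg numbered 1147, but 2464 with DESeq2, 1816 with only the 2 groups compared, 1739 without IL5Tg S7 and mdx S5 together and 110 to 1841 when any 1 library was left out. Leaving out 1 library gave 1521 to 4057 calls in mdx against mdx_IL5Tg and 1961 to 2938 in mdx against IL5Tg. For the acid-base and ion transport genes it gave 1 to 6, 4 to 16 and 6 to 13 calls in the 3 comparisons, and mdx against mdx_IL5Tg had 21 with library totals only and 19 with no filter. The share of calls that were higher was 60.2%, 53.3% and 56.8%, and with library totals only 24.1%, 84.3% and 70.7%, as the median of all genes then moved to -0.27, 0.46 and 0.12 on the log2 scale. It was 49.0% with DESeq2 in the first comparison and 39.8% with only the 2 groups compared in the second. Except for the scaling, the cause of these shifts was not tested. Of the values of named genes outside the members, 1180 kept their side of the threshold, 130 lost a call and 54 gained one. No paired analysis was possible because the columns carry no replicate numbers of the titles. Counts of 0 to 24 limit Car9 and Car12, and 3 libraries per group limit the rest.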
